A study of Mus musculus with 7 samples.

Results

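The genes Cd3e, Cd3g, Cd4, Cd8a, Cd8b1, Cd27, Cd5, Lck, Nkg7 and Gzma mark T cells and natural killer (NK) cells, and their transcripts were set side by side in lungs of claudin-18 knockout and wild-type mice. All probes of the deposited signal table that carried 1 of these 10 symbols were taken. This gave 12 probes of 9 genes, out of 25697 probes and 16593 named genes on the array; no probe was named Lck. The knockout mice came from a floxed claudin-18 allele and a CMV-cre deleter, which removed exons 2 and 3 in all tissues. Deletion in T cells was not measured here. The wild-type mice are given only as such, and whether they carried the floxed allele or Cre is not given in the sources used here. Both groups were untreated males, 3 to 4 months old, on a mixed 129S6/SvEvTac, C57BL/6J, Balb/c background. Whole lung RNA was read on 3 knockout and 4 wild-type Illumina bead arrays of 1 slide, and the labels speak of 4 replicates per genotype; 1 further knockout was not analysed here. Nothing says that the arrays come from different animals, so a p-value here covers the spread between samples, which may be technical.

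T cells recognise antigen through the T cell receptor, whose signal is carried into the cell by the CD3 chains and started by the kinase encoded by Lck. CD4 marks helper T cells, CD8 marks cytotoxic T cells, and NK cells share with cytotoxic T cells the granules that hold the products of Nkg7 and Gzma. In a resting lung these cells lie in the vessels, the interstitium and the epithelium among far more numerous structural cells.

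Promoters of 3 genes are shown because these genes behaved differently: Cd27 was lower in the knockout, Nkg7 had groups that did not overlap without passing the test, and Cd3e showed hardly any difference. The sequences are from RefSeq (GRCm38.p6), run 5′ to 3′ on the gene's strand from 250 bases before to 50 bases after the start of the gene, and were found for 8 of the 10 genes. They lie at chr6:125236978-125237277 (minus strand) for Cd27, chr7:43436888-43437187 (plus strand) for Nkg7 and chr9:45009562-45009861 (minus strand) for Cd3e. Capitals mark matches, on either strand, to a core motif of a factor family: AGGAAG for the ETS family, CCACCC for the KLF family, TGTGGT for the RUNX family, and AGATAA for the family of Gata3.
Cd27: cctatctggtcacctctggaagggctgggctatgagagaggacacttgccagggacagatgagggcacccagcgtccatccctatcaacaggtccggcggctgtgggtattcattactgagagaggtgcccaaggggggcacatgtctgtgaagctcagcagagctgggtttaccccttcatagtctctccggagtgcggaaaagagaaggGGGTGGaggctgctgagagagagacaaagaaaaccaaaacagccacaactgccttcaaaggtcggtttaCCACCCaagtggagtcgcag
Nkg7: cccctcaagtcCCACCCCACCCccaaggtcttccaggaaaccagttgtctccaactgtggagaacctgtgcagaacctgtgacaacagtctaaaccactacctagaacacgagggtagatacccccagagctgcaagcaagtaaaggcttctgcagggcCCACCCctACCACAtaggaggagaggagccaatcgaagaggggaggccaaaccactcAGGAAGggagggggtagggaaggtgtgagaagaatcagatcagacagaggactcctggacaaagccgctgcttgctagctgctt
Cd3e: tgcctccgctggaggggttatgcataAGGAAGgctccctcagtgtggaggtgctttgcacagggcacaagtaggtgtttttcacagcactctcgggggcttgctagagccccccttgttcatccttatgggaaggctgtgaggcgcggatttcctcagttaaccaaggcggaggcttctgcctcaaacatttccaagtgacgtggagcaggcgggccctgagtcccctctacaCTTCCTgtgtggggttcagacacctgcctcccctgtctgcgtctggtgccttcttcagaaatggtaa
The Cd27 window held 2 KLF matches and 0 ETS matches. The Nkg7 window held 3 KLF matches, of which 2 overlap each other, 1 ETS match and 1 RUNX match, and the Cd3e window held 2 ETS matches and 0 KLF matches. Among 32851 mouse promoters of this length, 35.4% held the ETS letters, 31.5% the KLF letters, 16.8% the RUNX letters and 11.2% the AGATAA letters. A match is a run of letters and not evidence of binding.

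The targeted gene was read first. Cldn18 had signals of 1875, 1030 and 935 on the knockout arrays, against 18072, 14718, 27990 and 19666 on the wild-type arrays, a change of -3.71 on the log2 scale (SE 0.19, limma adjusted p = 4.2e-05). Median signals over all probes were 349, 259 and 316 on knockout arrays and 453, 355, 366 and 468 on wild-type arrays, so levels below are normalized log2 levels unless called signals. A probe was tested where its detection p was under 0.01 on at least 3 arrays, and it was called where limma's p, adjusted over the 11902 probes kept, was under 0.05. Of those probes, 1056 were called, 472 higher and 584 lower. Of 12 lung epithelial markers, 11 had a probe and 10 were tested, which goes with the labelled tissue. Of these, 2 were higher in the knockout (Napsa 0.96, Sftpa1 0.76) and 0 lower, with a median change of 0.40. The Napsa call held in 14 of 15 alternatives and the Sftpa1 call in 9 of 15. The part of the epithelial markers in the results below was not tested. In whole lung, fewer cells of a type and less RNA per cell cannot be told apart.

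T and NK cell genes were detected unevenly. Of the 12 probes, 6 probes of 5 genes (Cd3e, Cd3g, Cd27, Cd8b1 and Nkg7) were tested, 5 probes were detected on no array, and 1 Cd27 probe was detected on 2 wild-type arrays and not tested. Cd5, Cd4, Cd8a and Gzma were detected on no array. Of the 6 probes tested, 2 were lower in the knockout (the brightest probes of Cd27 and Cd8b1), 0 were higher and 4 did not pass. The background was 8.87% of all probes called, 4.91% lower and 3.97% higher. The changes of the 5 probes detected on all 7 arrays ran from -1.46 to -0.03, beside a median of 0.02 over all probes tested. The other, the dimmer Cd8b1 probe, entered the test through wild-type arrays alone.

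**Figure D1:**
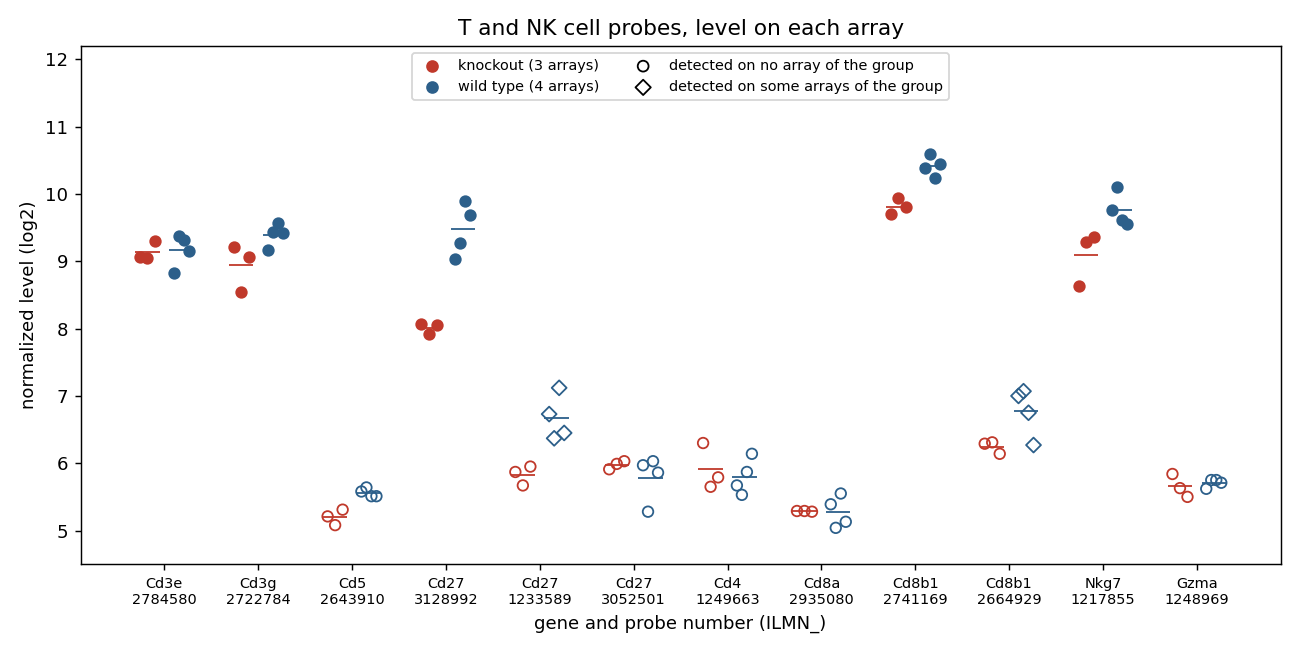
Normalized log2 level of each of the 12 T and NK cell probes on each array, knockout (red) left of wild type (blue), with a line at the mean of 3 or 4 arrays. Open circles are groups with no detected array and open diamonds groups detected on some arrays only. The brightest Cd27 probe lies between 7.92 and 8.07 on the knockout arrays and between 9.04 and 9.90 on the wild-type arrays, while the Cd3e groups overlap.

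Cd27 encodes a costimulatory receptor of the tumour necrosis factor receptor family, which T cells, NK cells and some B cells carry. Its brightest probe, ILMN_3128992, stood at 8.07, 7.92 and 8.05 in the knockout, against 9.04, 9.27, 9.90 and 9.69 in the wild type. Every knockout array lay below every wild-type array, and the knockout arrays lay close together while the wild-type arrays were spread. The means were 8.01 ± 0.08 for the 3 knockout and 9.48 ± 0.39 for the 4 wild-type arrays (± SD) by limma, a fall of 2.76-fold (log2 change -1.46, SE 0.22, adjusted p = 0.00541). Groups apart were found for 25.7% of all probes tested, 12.4% with the knockout lower and 13.3% with it higher. The call held under all 15 alternative settings, with changes of -1.68 to -0.71 and limma adjusted p of 0.000626 to 0.0344. The smallest change, -0.71, came from the authors' values, and with no background correction it was -0.87, so the size of the fall depends on the processing.

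The other probes of Cd27 were dim. Probe ILMN_1233589 gave signals of 307, 226 and 296 in the knockout, where it was not well above background on any array, and 485, 351, 433 and 470 in the wild type, where 2 arrays detected it. Its normalized levels were 5.67 to 5.95 in the knockout and 6.37 to 7.12 in the wild type. These were apart but near background, and the probe was not tested, so no change is given. Probe ILMN_3052501, with signals of 241 to 310 in the knockout and 271 to 419 in the wild type, was detected on no array and its levels overlapped.

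Cd3e encodes the epsilon chain of the CD3 complex, which all mature T cells carry. Its level was 9.06, 9.05 and 9.30 in the knockout, against 8.83, 9.37, 9.31 and 9.16 in the wild type. The knockout arrays lay within the range of the wild-type arrays. The change was -0.03 (SE 0.18, limma adjusted p = 0.930), which does not show that the levels were equal. Before normalization the Cd3e signals were 859, 523 and 606 in the knockout and 995, 899, 1064 and 1016 in the wild type, apart in the same direction as the array medians.

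Cd3g encodes the gamma chain of the same complex. It stood at 9.21, 8.55 and 9.06 in the knockout, against 9.17, 9.43, 9.57 and 9.42 in the wild type. Knockout 1 lay above wild type 1, and knockout 2 lay lowest of all 7 arrays. The change of -0.46 (SE 0.20) had an unadjusted p of 0.0437 in limma and an adjusted p of 0.180. Without knockout 2 the change was -0.26 (limma adjusted p = 0.529).

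Cd5 encodes a surface receptor that dampens T cell receptor signals. Its signals were 249, 182 and 258 in the knockout and 368, 302, 287 and 383 in the wild type, not well above background on any array. Normalized levels were 5.21, 5.08 and 5.31 in the knockout against 5.58, 5.64, 5.51 and 5.51 in the wild type, apart but within the background range, so no change is given. Lck, the kinase that starts the receptor's signal, had no named probe.

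The helper T cell gene Cd4, which encodes the co-receptor for class II antigen presentation, was also at background. Its signals were 339, 225 and 289 in the knockout, against 378, 294, 319 and 444 in the wild type. After normalization the groups overlapped, at 5.65 to 6.30 in the knockout and 5.53 to 6.14 in the wild type.

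The cytotoxic T cell co-receptor CD8 is built from the products of Cd8a and Cd8b1. Its beta chain gene, Cd8b1, gave levels of 9.70, 9.94 and 9.80 in the knockout with probe ILMN_2741169, against 10.38, 10.59, 10.24 and 10.44 in the wild type. All 3 knockout arrays lay below all 4 wild-type arrays. The means were 9.82 ± 0.12 for the 3 knockout and 10.4 ± 0.15 for the 4 wild-type arrays (± SD) by limma, a fall of 1.51-fold (log2 change -0.59, SE 0.16, adjusted p = 0.0456). This call was close to the threshold and held in 7 of 15 alternatives. It was lost without knockout 1 (limma adjusted p = 0.135), knockout 2 (0.118), knockout 3 (0.127), wild type 2 (0.101), wild type 3 (0.0618) or wild type 4 (0.0807), each with a change between -0.66 and -0.53.

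The dimmer Cd8b1 probe, ILMN_2664929, gave signals of 339, 254 and 304 in the knockout, not well above background, against 520, 404, 394 and 455 in the wild type, where 3 of 4 arrays detected it. Its normalized levels were 6.29, 6.31 and 6.14 in the knockout and 7.0, 7.07, 6.75 and 6.27 in the wild type, with wild type 4 inside the knockout range. It did not pass (limma adjusted p = 0.151). No change or fold is given, since no knockout array detected it and the bound for undetected arrays exceeded the wild-type mean.

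Cd8a, the alpha chain gene, was detected on no array, with signals of 258, 202 and 256 in the knockout and 347, 245, 290 and 334 in the wild type. Its normalized levels overlapped, at 5.28 to 5.29 in the knockout and 5.04 to 5.55 in the wild type. The CD8 reading therefore rested on Cd8b1.

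Nkg7 encodes a membrane protein of the cytotoxic granules of NK cells and cytotoxic T cells. Its level was 8.63, 9.28 and 9.36 in the knockout, against 9.76, 10.11, 9.61 and 9.55 in the wild type. The groups did not overlap, and knockout 1 lay well below the other knockout arrays. The means were 9.09 ± 0.40 for the 3 knockout and 9.76 ± 0.25 for the 4 wild-type arrays (± SD), and the change of -0.67 did not pass by limma (SE 0.22, unadjusted p = 0.0135, adjusted p = 0.0943). Without knockout 1 it was -0.44 (limma adjusted p = 0.260). With median scaling in place of quantile normalization Nkg7 passed (change -0.88, limma adjusted p = 0.0251), a setting that moved the median of all probes to -0.14 and the lower share of calls to 77.0%, against 55.3% as reported.

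Gzma, which encodes the granule protease granzyme A, was detected on no array. Its signals were 305, 224 and 272 in the knockout and 373, 310, 308 and 405 in the wild type. The normalized levels overlapped.

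Since levels of different probes cannot be set against each other, members were compared through the per-array difference of their log2 levels, taken as knockout minus wild type. Of 6 pairs of helper, cytotoxic, NK and CD3 genes listed first, 1 (Nkg7 minus Cd3e) had both genes detected on all arrays. The other 5 rested on Cd4, Cd8a or Gzma, so helper and cytotoxic genes could not be compared at this signal. All 10 pairs of the 5 detected genes were therefore tested, a family chosen after detection was known, with exact two-sided permutation tests over the 35 splits of the arrays.

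None of the 10 pairs passed after Benjamini-Hochberg adjustment over the 10, where the smallest exact p that 3 and 4 arrays allow is 0.0286. A single pair at that floor could not pass over 10 pairs or over the first 6, however large its shift. No conclusion is therefore drawn from pairs that did not pass. The difference between Cd27 and Cd3e was -1.12 ± 0.13 in the knockout and 0.31 ± 0.32 in the wild type (± SD), a shift of -1.43 (SE 0.17, exact p = 0.0286, adjusted p = 0.114). For Cd27 against Cd3g the shift was -1.01 (SE 0.20, exact p = 0.0286, adjusted p = 0.114). In both pairs every knockout array lay below every wild-type array, as it did for Cd27 against Cd8b1 (-0.87, SE 0.27, exact p = 0.0857, adjusted p = 0.143).

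The NK and cytotoxic granule gene Nkg7 shifted against Cd3e by -0.64 (SE 0.25), with groups apart (exact p = 0.0571, adjusted p = 0.114 over the 10 pairs and 0.257 over the first 6). Cd8b1 shifted against Cd3e by -0.56 (SE 0.17, exact p = 0.0571, adjusted p = 0.114), also with groups apart. Cd3g against Cd3e gave -0.42 (SE 0.20, exact p = 0.0571, adjusted p = 0.114), with overlap. Between Nkg7 and Cd8b1 the shift was -0.08 (SE 0.20, exact p = 0.600), between Nkg7 and Cd3g -0.21 (SE 0.42, exact p = 0.629), and between Cd8b1 and Cd3g -0.14 (SE 0.30, exact p = 0.629). These last 3 reversed their sign without knockout 1, to 0.10, 0.16 and 0.06 in the same order. Cd27 against Nkg7 gave -0.79 (SE 0.39, exact p = 0.171, adjusted p = 0.245).

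**Figure D2:**
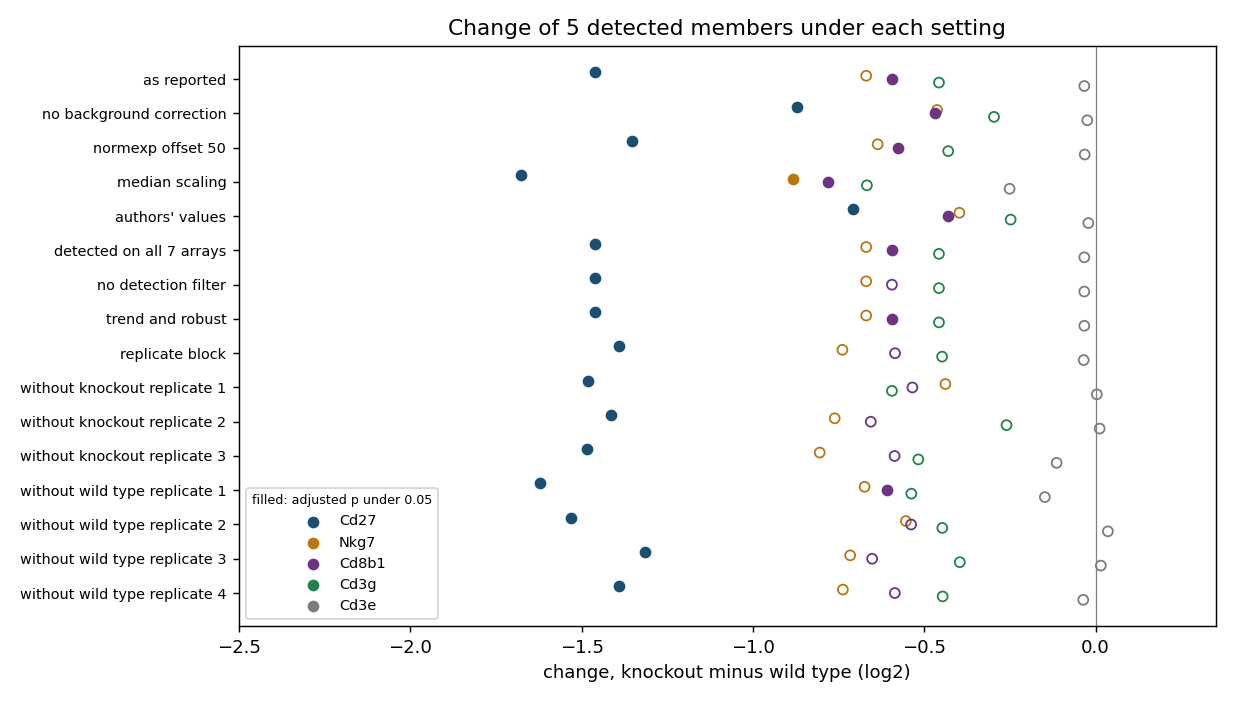
Log2 change, knockout minus wild type, of the 5 detected T and NK cell genes (brightest probe of each) as reported and under 15 alternative settings. Filled points passed limma's adjusted p of 0.05. Cd27 is filled throughout, between -1.68 and -0.71, Cd8b1 is filled as reported and in 7 alternatives, and Nkg7 with median scaling alone.

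Other genes of T and NK cells were read from 4 lists. Of 124 genes, 105 had a probe, 45 were detected on no array and 50 were tested, by the brightest kept probe of each. In the knockout 3 were higher and 6 lower, against backgrounds of 3.68% of all genes called higher and 5.11% called lower, and 41 did not pass. Their median change was 0.05, beside 0.01 over all 8537 genes. Without knockout 2 or without knockout 3 the count of higher genes was 1.

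Among genes of the T cell receptor and its signal, 16 were tested, with 1 higher, 1 lower and a median change of 0.11. Cd3d, the delta chain of CD3, stood at 9.88, 9.80 and 9.81 in the knockout and 9.78, 10.20, 10.13 and 9.76 in the wild type, with overlap (change -0.14, limma adjusted p = 0.647). Cd247, the zeta chain, gave 0.20 (limma adjusted p = 0.695), and Zap70, the kinase that binds it, -0.04 (limma adjusted p = 0.919). Rasgrp1, which activates Ras below the receptor, was lower in the knockout by limma (change -1.23, SE 0.22, adjusted p = 0.0109). Under the alternative settings its change ran from -1.43 to -0.66. Sla, an adaptor that lowers receptor levels, was higher (change 1.02, SE 0.20, limma adjusted p = 0.0140), a gene chosen after its value was seen. Without knockout 2 its limma adjusted p was 0.0656 and without knockout 3 0.0551. A dimmer Sla probe, ILMN_1216337, had overlapping groups and did not pass (change 0.41, limma adjusted p = 0.444). Another, ILMN_3043669, was higher (limma adjusted p = 0.00779), but only 1 wild-type array detected it. Lat was not tested.

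Among T cell surface genes, 15 were tested, with 1 higher, 1 lower and a median change of -0.00. Itgae encodes the integrin alpha chain that holds lymphocytes and some dendritic cells to epithelium. It was 10.87, 11.05 and 10.92 in the knockout, against 9.19, 8.82, 9.23 and 9.10 in the wild type. The groups lay far apart, and Itgae was higher by 1.86 (SE 0.16, limma adjusted p = 0.00064), with all 3 of its kept probes higher. Beside it, 2 of 6 dendritic cell markers tested were higher in the knockout, Ccl17 by 3.05 and Cd207 by 2.64 (limma adjusted p = 0.000881 each). In the authors' values these were 1.41 and 1.06, and 2 wild-type arrays detected Ccl17 and 3 detected Cd207. The other 4 did not pass and went both ways: H2-DMb2 0.45, Zbtb46 0.14, Siglech -0.13 and Bst2 -0.96. Itgax, Flt3, Xcr1, Clec9a, Ccl22 and Cd209a were detected on no array. The summed linear level of the 6 tested markers, with Ccl17 and Cd207 among them, was 2611 to 3412 in the knockout and 1375 to 1769 in the wild type. This sum does not show that the list as a whole was raised. The part of dendritic cells in the Itgae result was not tested.

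Cd69, which encodes an early activation marker that keeps lymphocytes in tissue, moved the other way. It stood at 8.34, 7.49 and 8.07 in the knockout, against 9.67, 9.61, 9.36 and 9.70 in the wild type. Every knockout array was below the wild type (change -1.62, SE 0.21, limma adjusted p = 0.00338). In the authors' values the change was -0.77, also past the threshold. The surface genes Thy1 (-0.34, adjusted p = 0.239), Cd2 (0.39, adjusted p = 0.350), Il7r (-0.00, adjusted p = 0.995) and Cd28 (-0.16, adjusted p = 0.641) did not pass in limma. A dimmer Cd28 probe, above background on 0 of the 3 knockout arrays, had groups apart with the knockout lower and did not pass either (limma adjusted p = 0.0552).

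Of the T cell transcription factors, 9 were tested, with 1 higher, 4 lower and a median change of -1.01. Ets1, a factor of lymphocytes and endothelium, was 12.34, 12.03 and 12.08 in the knockout and 14.09, 13.49, 13.43 and 13.59 in the wild type (change -1.50, SE 0.20, limma adjusted p = 0.00327). Klf2, which keeps T cells quiescent and is also a flow-induced endothelial factor, was 13.20, 13.15 and 12.80 in the knockout and 14.26, 14.37, 14.25 and 14.59 in the wild type (change -1.32, SE 0.17, limma adjusted p = 0.00323). Both had groups far apart. Satb1, a chromatin organiser of T cells, was lower by limma (change -1.21, SE 0.20, adjusted p = 0.00832).

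Chosen after their values were seen, the other called factors were Gata3, the factor of type 2 helper cells, and Id2, a factor of NK and innate lymphoid cells. Gata3 was lower by limma (change -1.09, SE 0.26, adjusted p = 0.0325), but it met the detection filter through the wild type, with 1 knockout array and 4 wild-type arrays above background, and the change was -0.28 in the authors' values and -0.40 with no background correction, neither past the threshold. Id2 was higher (change 0.82, SE 0.18, limma adjusted p = 0.0253). Gata3 lost the call without knockout 2 (limma adjusted p = 0.135), knockout 3 (0.112), wild type 1 (0.0629), wild type 3 (0.0714) or wild type 4 (0.0735). Id2 lost it without knockout 1 (limma adjusted p = 0.0547), knockout 2 (0.0896), knockout 3 (0.0924) or wild type 2 (0.0615). The Id2 call was also lost with median scaling (change 0.62, limma adjusted p = 0.113) and with the replicate block (limma adjusted p = 0.0587). Before normalization the mean Id2 signal was 981 in the knockout and 981 in the wild type, while the array medians were lower in the knockout. The rise was therefore seen in normalized levels only. It was 0.58 with no background correction and 0.51 in the authors' values, both past the threshold. Tcf7 had no named probe.

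Beside these factors, 6 of 7 endothelial markers tested were lower in the knockout, among them Calcrl (-1.79, limma adjusted p = 0.0084) and Tie1 (-1.58, limma adjusted p = 0.00779). Calcrl met the detection filter through the wild type, with 1 knockout array above background, and the authors' values gave -0.55 for Calcrl and -0.76 for Tie1. The summed linear level of the markers was 23287 to 27333 in the knockout and 42650 to 47915 in the wild type. Their part in the levels of Ets1 and Klf2 was not tested.

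Of 10 NK and cytotoxic genes tested, 0 passed by limma in either direction, and the median change was 0.12. Tyrobp (0.56), Fcgr3 (0.50) and Ccl4 (0.36), chosen after their values were seen, were the highest. Klrd1 (-0.26) and S1pr5 (-0.02) were below 0. The part of cells other than NK and cytotoxic cells in these levels was not tested. Prf1, the pore-forming protein of granules, gave 0.32 (limma adjusted p = 0.501). A dimmer Prf1 probe, ILMN_1228333, detected on 2 knockout and 4 wild-type arrays, went the other way (-0.11, limma adjusted p = 0.790). Klrd1, a lectin receptor chain of NK cells, gave -0.26 (limma adjusted p = 0.471), and Ccl5, a chemokine stored by cytotoxic cells, 0.10 (limma adjusted p = 0.814). Gzmb and Il2rb were among 20 genes of this list detected on no array.

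**Figure D3:**
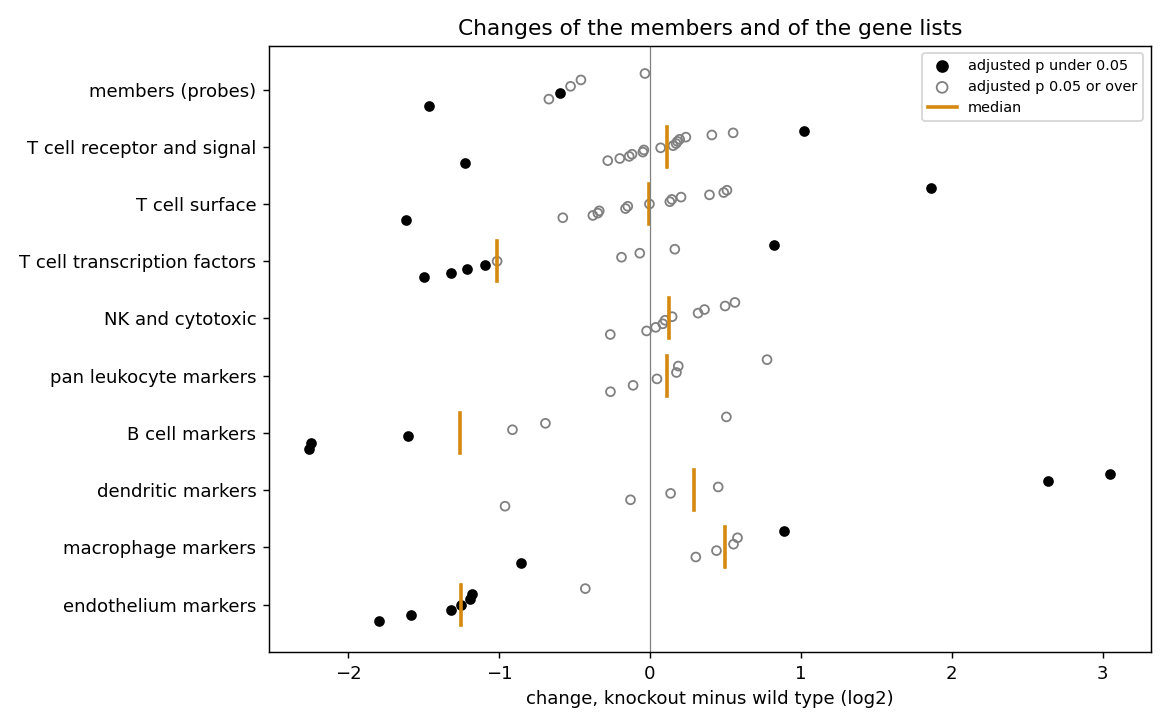
Log2 change, knockout minus wild type, of the 6 tested T and NK cell probes and of the tested genes of other lists (1 point per gene, brightest kept probe), with the median of each other list as an orange bar and filled points past limma's adjusted p of 0.05. The T and NK cell probes detected on all arrays lie between -1.46 and -0.03, and the median is 0.11 for T cell receptor genes, 0.12 for NK and cytotoxic genes, and -1.26 for B cell markers.

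Markers of other blood cells were read beside the T and NK cell genes. Of 6 pan leukocyte markers tested, 0 passed by limma, with changes from -0.26 (Rac2) to 0.78 (Itgb2). Their summed linear level was 40329 to 48767 in the knockout and 38378 to 43965 in the wild type. This sum was led by the brightest genes, Laptm5 and Coro1a, and says little about the others. Of 6 B cell markers tested, 3 were lower, among them Fcmr (-2.26, limma adjusted p = 0.00116) and Fcrla (-2.24, limma adjusted p = 0.00121). Fcrla was detected on 1 knockout array, and the authors' values gave smaller changes of -1.27 for Fcmr and -0.74 for Fcrla. Cd22, chosen after its value was seen, went the other way without passing (0.51), with groups apart. Their summed level was 1198 to 1670 in the knockout and 2733 to 4387 in the wild type, and Cr2, Pax5 and Spib were detected on no array. Cd27 is carried by some B cells, and the part of B cells in its level was not tested. Of 7 red cell and platelet markers tested, 1 was lower, Slc4a1 (-2.64, limma adjusted p = 0.0116), and their median change was -0.96. Of 6 macrophage markers tested, 1 was higher, Chil3 (0.89, limma adjusted p = 0.0492), and the median change was 0.50. Cd163, which 0 knockout arrays detected, was called lower (limma adjusted p = 0.0258). The Chil3 call held in 6 of 15 alternatives and the Cd163 call in 6 of 14. Of 6 granulocyte and mast cell markers tested, 0 passed by limma, with a median change of -0.31.

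**Figure D4:**
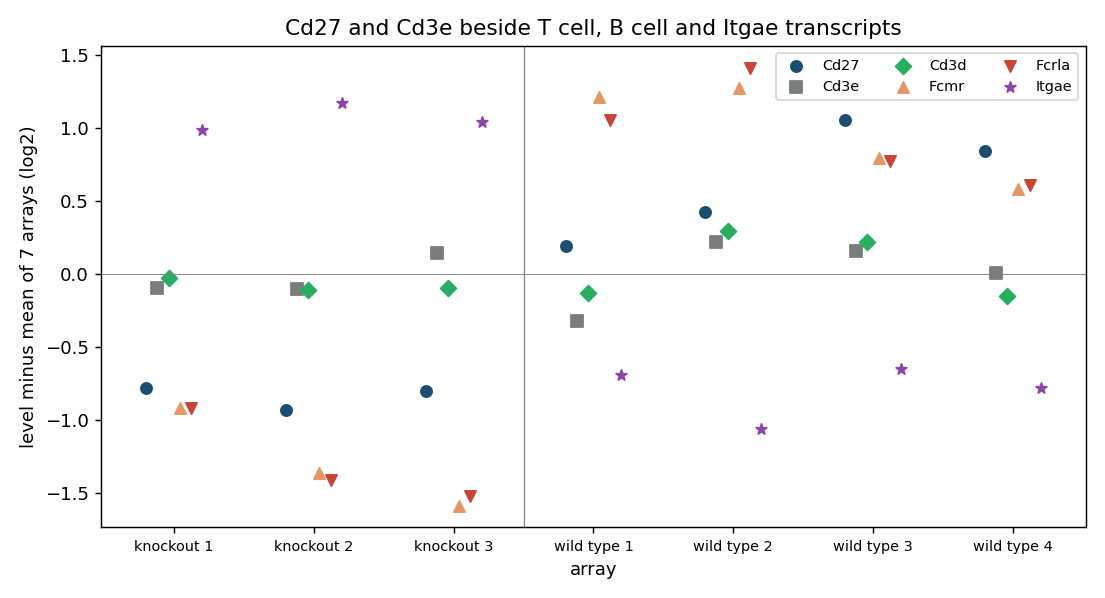
Normalized log2 level minus the gene's mean over the 7 arrays, on the 3 knockout arrays (left) and the 4 wild-type arrays (right), for Cd27, the CD3 chains Cd3e and Cd3d, the B cell markers Fcmr and Fcrla, and Itgae. Cd27, Fcmr and Fcrla are below 0 on every knockout array and above 0 on every wild-type array, Itgae is the reverse, and Cd3e lies on both sides of 0 in both groups.

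The genes with the most similar profile were sought among 6978 genes detected on all 7 arrays, with the T and NK cell members left out. The measure was the mean absolute difference of log2 levels after each gene's own mean was taken off. For Cd3e the nearest genes were Mrpl9 (0.0423), Sult5a1 (0.0435) and Adat2 (0.0462). For Cd8b1 they were Tbxa2r (0.0581), Tiam1 (0.0919) and Pcolce (0.0920), and for Nkg7 they were Gyg (0.0966), Mdm2 (0.0983) and Dnaic1 (0.107). No profile was sought for Cd4, which was not detected.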

How the data were processed

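Mean bead intensity and a detection p-value per probe and array were deposited by the authors for 3 knockout and 4 wild-type arrays, per the file headers. The authors' second table holds log2-like values, for which the submitters' processing notes name lumi 1.14.0 and R 2.11.1, and served as an alternative; its exact transformation is unknown. Probe symbols came from the platform annotation, which names 23978 of 25697 probes.

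In R 4.3.3 with limma 3.58.1, neqc corrected background with negative controls that it inferred from detection p-values, quantile normalized with an offset of 16 and took log2. Probes detected (p under 0.01) on 3 or more arrays were tested with lmFit and eBayes, adjusted over 11902 probes by Benjamini-Hochberg at 0.05. The same code was tested on simulated data. Changes are knockout minus wild type. Replicate numbers were not taken as pairs in the main fit. Same-numbered arrays' deviations from their group means correlated at -0.02, -0.00 and -0.14, which shows no pairing but cannot exclude it. Python 3.11.15 searched motifs and drew figures. For arrays, their number limits the precision.

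Members, lists and tests were chosen with earlier results of these data known. Named genes were all members, Cldn18, preset list genes, the 6 largest called changes of the lists, up to 2 per marker list, and 3 nearest profiles. Alternatives changed the background correction, normalization, filter, source of values, variance model, replicate block and probe rule, or left out an array.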

Additional observations from a re-analysis of the deposited data

Results flagged for a closer look

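Among the T and NK cell genes, the list genes tested here and Cldn18, 57 wild-type groups of 4 arrays were checked for an array far from the others, and 1 stood out, where chance alone gives several among so many. The probe of Malt1, a scaffold protease of antigen receptor signalling, was at 6.96, 7.75 and 7.31 in the knockout, against 6.82, 6.67, 6.83 and 6.82 in the wild type. Wild type 2 lay below the other wild-type arrays by 0.910 of the group's whole range, above Dixon's critical share for a group of 4. The change between genotypes was 0.55 (limma adjusted p = 0.116), and 2 of the 4 wild-type arrays detected the probe.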

How the results depend on the processing

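Cd27, Itgae, Cd69, Ets1, Klf2, Rasgrp1 and Satb1 kept their direction and their call under each alternative run for them. The number of T and NK cell probes called was 2 as reported, 1 with no detection filter, 1 with the replicate block (replicates 1 to 3 of both genotypes), 3 with median scaling, and 1 to 2 with an array left out. The Cd8b1 call was the one lost with no detection filter (limma adjusted p = 0.0717) and with the replicate block (0.140). Over all probes the replicate block gave 401 calls, and leaving out an array gave 327 to 1045: 327 when knockout 2 was left out, 493 for knockout 3, 702 for knockout 1 and 694 for wild type 2. List genes called were 6 to 9 with an array left out, and counting all kept probes in place of genes gave 6 higher, all of them probes of Itgae, Sla or Id2. The shift of Nkg7 against Cd3e ran from -0.77 to -0.44 with an array left out (exact p 0.0667 to 0.133; such splits cannot go below 0.0667 or 0.1), and that of Cldn18 from -3.84 to -3.58. Changes that did not pass and were near 0 reversed in places. With median scaling Ccl5 gave -0.0910 and Cd247 -0.0335, and with the replicate block Cd247 gave -0.0200 and Zap70 0.0422. With an array left out, the change ran from -0.0310 to 0.266 for Ccl5, -0.0204 to 0.423 for Cd247, -0.148 to 0.0359 for Cd3e, -0.141 to 0.230 for Il7r and -0.166 to 0.0495 for Zap70. The shift ran from -0.396 to 0.0598 for Cd8b1 minus Cd3g, -0.501 to 0.156 for Nkg7 minus Cd3g and -0.219 to 0.0962 for Nkg7 minus Cd8b1. Nkg7 minus Cd8b1 was 0.0325 in the authors' values and 0.00630 with no background correction. The cause of these reversals was not tested. Signal over background limits Cd4, Cd8a, Cd5 and Gzma, which no array detected.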
